A study of Mus musculus with 12 samples.

Results

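The genes described here are 54 genes of DNA replication and cell division, chosen by symbol from 22310 gene symbols counted in every library. They comprise 22 S-phase genes (origin licensing, DNA synthesis, the E2F factors and the E cyclins), 5 G1 genes (the D cyclins with Cdk4 and Cdk6) and 27 mitotic genes. The choice was made with earlier results of these data known. Total RNA was sequenced from satellite cells, the stem cells of skeletal muscle. They came from hindlimbs of C57BL/6 mice 3 days after barium chloride injury (50 µl at 1.2%, given at about 20 places). Young mice were 3 to 4 months old and old mice 22 to 28 months old. At each age the mice were wild type or carried a Hoxa9 knock-out, which gave 4 groups of 3 libraries. All 4 groups were injured and taken at the same time point, so none shows uninjured muscle or the course of the response. The labels do not say whether Hoxa9 was deleted in the whole mouse or in satellite cells alone, nor whether the numbered libraries of a group came from separate mice. The p-values below therefore measure the spread between these libraries, which may be technical.

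Satellite cells of resting muscle do not divide. After injury they enter the cell cycle: D cyclins with CDK4 and CDK6 inactivate the RB protein, and E2F factors are set free and switch on the replication genes. Later the B-MYB complex and FOXM1 switch on the mitotic genes. Levels of these mRNAs in a bulk sample follow both the share of dividing cells and the amount of RNA in each, and fewer cells in a phase cannot be told apart from less RNA per cell.

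The promoters of the members show how the replication and mitotic genes divide in sequence. RefSeq (GRCm38.p6) gave a window of 300 bases, from 250 before to 50 after the transcription start, for 44 of the 54 members, 4 of them with more than 1 window. Mcm4, Gins2, Ccna2, Ccnd1, Ccnd2, Ccne2, Cdc25c, Aurkb, Tpx2 and Foxm1 had none. Both strands were searched for the E2F element (TTTCCCGC, TTTGGCGC, TTTCGCGC or TTTGCCGC), for the cell cycle homology region or CHR (TTTGAA or TTCGAA), which the DREAM complex binds in mitotic genes, and for the CCAAT box (CCAAT), the site of NF-Y. In the lines that follow, capitals mark these letters on either strand. E2f7, Mcm3 and Mcm5 are shown as replication-side promoters that hold E2F letters, E2f7 also being a member that fell in the young knockout. The windows lie at chr10:110745189-110745488 on the plus strand (E2f7), chr1:20820263-20820562 on the minus strand (Mcm3) and chr8:75109259-75109558 on the plus strand (Mcm5). The E2F letters of Mcm5 overlap on the 2 strands.
E2f7: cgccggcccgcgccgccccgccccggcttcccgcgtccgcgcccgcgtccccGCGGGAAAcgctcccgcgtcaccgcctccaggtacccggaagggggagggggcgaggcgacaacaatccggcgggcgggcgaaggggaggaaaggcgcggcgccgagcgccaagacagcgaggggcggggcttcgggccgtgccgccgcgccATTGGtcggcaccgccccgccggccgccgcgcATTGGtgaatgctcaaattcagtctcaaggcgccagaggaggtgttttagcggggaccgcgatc
Mcm3: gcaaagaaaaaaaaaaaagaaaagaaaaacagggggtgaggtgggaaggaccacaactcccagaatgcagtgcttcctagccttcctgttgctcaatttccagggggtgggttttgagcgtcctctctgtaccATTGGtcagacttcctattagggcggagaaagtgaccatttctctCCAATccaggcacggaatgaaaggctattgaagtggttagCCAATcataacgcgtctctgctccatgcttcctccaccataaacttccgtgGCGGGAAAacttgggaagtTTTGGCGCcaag
Mcm5: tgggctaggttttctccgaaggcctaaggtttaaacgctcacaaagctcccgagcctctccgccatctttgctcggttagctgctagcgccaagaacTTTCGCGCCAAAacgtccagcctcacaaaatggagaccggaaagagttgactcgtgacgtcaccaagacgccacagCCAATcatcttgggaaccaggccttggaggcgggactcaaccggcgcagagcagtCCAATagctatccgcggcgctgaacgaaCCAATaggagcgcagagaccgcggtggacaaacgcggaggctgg

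Plk1, Ube2c and Cdc20 are shown as mitotic promoters of genes that fell in the young knockout, and Bub1, Ccnb1 and Mki67 as promoters of the mitotic genes that rose in the old knockout. They lie at chr7:122159185-122159484 on the plus strand (Plk1), chr2:164769679-164769978 on the plus strand (Ube2c), chr4:118437294-118437593 on the minus strand (Cdc20), chr2:127831810-127832109 on the minus strand (Bub1), chr13:100786437-100786736 on the minus strand (Ccnb1) and chr7:135716330-135716629 on the minus strand (Mki67).
Plk1: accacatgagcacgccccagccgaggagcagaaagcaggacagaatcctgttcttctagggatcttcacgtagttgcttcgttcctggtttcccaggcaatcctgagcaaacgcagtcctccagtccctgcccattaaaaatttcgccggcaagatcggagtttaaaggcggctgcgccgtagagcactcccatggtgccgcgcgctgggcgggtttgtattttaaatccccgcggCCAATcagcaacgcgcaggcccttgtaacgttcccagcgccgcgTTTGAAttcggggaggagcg
Ube2c: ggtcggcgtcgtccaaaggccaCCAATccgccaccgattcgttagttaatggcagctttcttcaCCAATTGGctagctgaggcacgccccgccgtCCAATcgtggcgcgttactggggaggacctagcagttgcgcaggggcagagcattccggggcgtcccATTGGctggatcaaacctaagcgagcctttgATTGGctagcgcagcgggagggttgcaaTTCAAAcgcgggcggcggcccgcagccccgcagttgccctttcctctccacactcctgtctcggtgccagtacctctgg
Cdc20: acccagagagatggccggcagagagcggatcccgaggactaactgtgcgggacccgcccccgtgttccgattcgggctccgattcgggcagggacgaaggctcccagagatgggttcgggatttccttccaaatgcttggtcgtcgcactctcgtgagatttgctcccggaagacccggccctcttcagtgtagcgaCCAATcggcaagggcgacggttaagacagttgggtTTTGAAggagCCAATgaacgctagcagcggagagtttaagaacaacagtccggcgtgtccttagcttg
Bub1: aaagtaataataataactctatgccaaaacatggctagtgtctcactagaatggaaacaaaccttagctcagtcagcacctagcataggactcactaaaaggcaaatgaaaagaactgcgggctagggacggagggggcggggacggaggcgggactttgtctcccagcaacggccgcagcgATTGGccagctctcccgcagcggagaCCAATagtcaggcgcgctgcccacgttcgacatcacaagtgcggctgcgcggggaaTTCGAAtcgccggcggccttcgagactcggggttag
Ccnb1: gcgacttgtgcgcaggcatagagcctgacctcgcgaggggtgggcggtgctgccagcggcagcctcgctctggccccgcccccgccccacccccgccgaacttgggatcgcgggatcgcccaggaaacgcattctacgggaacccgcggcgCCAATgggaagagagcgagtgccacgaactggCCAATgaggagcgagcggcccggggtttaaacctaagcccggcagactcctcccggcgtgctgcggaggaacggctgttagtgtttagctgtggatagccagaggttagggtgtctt
Mki67: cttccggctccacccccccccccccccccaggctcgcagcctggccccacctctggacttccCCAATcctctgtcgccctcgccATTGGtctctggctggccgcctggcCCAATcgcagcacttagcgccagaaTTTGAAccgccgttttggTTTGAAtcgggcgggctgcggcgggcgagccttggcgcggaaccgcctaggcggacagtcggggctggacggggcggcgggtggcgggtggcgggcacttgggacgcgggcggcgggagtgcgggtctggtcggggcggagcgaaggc

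All 6 mitotic windows hold CCAAT letters, and each except that of Ccnb1 also holds CHR letters. In Plk1 the CHR letters start 31 bases after the transcription start, in Bub1 15 bases after it, and in Cdc20 18 bases before it. E2F letters were found in 11 of 19 S-phase members (57.9%), in 1 of 22 mitotic members (4.55%, Cdk1) and in 2.61% of the 27025 genes in the promoter table. CHR letters were found in 15 of 22 mitotic members (68.2%), in 5 of 19 S-phase members (26.3%) and in 21.7% of all genes. CCAAT letters were found in 17 of 22 mitotic members (77.3%), 14 of 19 S-phase members (73.7%) and 41.1% of all genes. Among the members that fell in the young knockout and had a window, 2 of 11 held E2F letters and 6 of 11 held CHR letters. Among the tested members that did not pass there, the same counts were 10 of 31 and 14 of 31. These counts describe letters only and carry no test. The windows of the members are richer in G and C than those of all genes (medians of 59.5% for S-phase and 58.8% for mitotic members, against 52.7%).

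**Figure D1:**
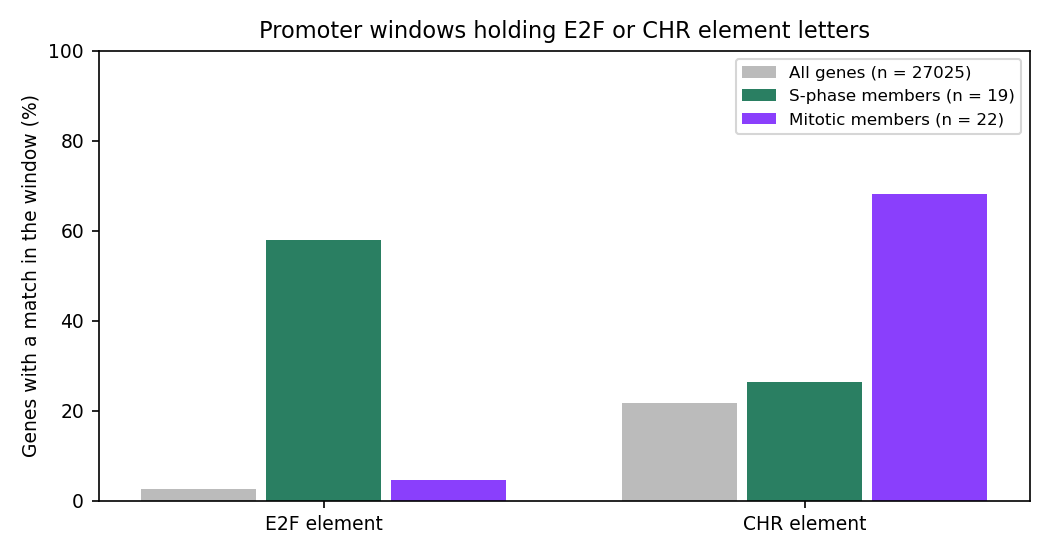
Share of genes (%, vertical axis) whose promoter window holds the letters of an E2F element or a CHR element, for all 27025 genes with a window (grey), 19 S-phase members (green) and 22 mitotic members (purple). E2F letters reach 57.9% in the S-phase members and CHR letters 68.2% in the mitotic members.

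The libraries held 4193433 to 20337015 counts in genes. Hoxa9 itself read 7.96 to 11.5 CPM (counts per 1000000 counts in genes after TMM scaling, a correction for the make-up of each library) in the young and 14.7 to 22.5 CPM in the old wild type, against 5.52 to 7.21 CPM in the young and 4.55 to 6.46 CPM in the old knockout. Wild-type and knockout libraries did not overlap, but counts of 22 to 87 per knockout library remained, and a count per gene does not show which exon they came from. Of the 15 satellite cell and myoblast markers, none was at 0 in any group. Their summed level was 9688 to 11213 CPM in young wild type and 8648 to 9470 in old wild type. In young and old knockout it was 7476 to 10655 and 8374 to 9336 CPM. By the test described below, 4 of the 15 fell and 0 rose in the young knockout, beside 10.0% and 10.9% of all tested genes. In the old knockout 2 fell and 1 rose, beside 7.21% and 9.52%. With age in wild type 3 fell and 0 rose, beside 0.805% and 0.258%. Macrophage markers summed to 33.8 to 66.5 CPM in young wild type, 196 to 228 in old wild type, 29.0 to 237 in young knockout and 25.6 to 117 in old knockout, with none of the 18 genes at 0 in any group. Fibroblast markers summed to 10147 to 12732, 5765 to 6940, 7144 to 8764 and 6935 to 10921 CPM in the same order. The collagen genes Col1a1, Col1a2 and Col3a1 made up most of these sums. Pdgfra averaged 4.39, 5.08, 3.90 and 7.26 CPM, and Dcn, unlike the sum, 38.4, 19.8, 193 and 305 CPM. Of the 12 genes, 7 had positive log2 fold changes in the young and 10 in the old knockout, beside 49.0% and 48.9% of all genes. Tendon markers summed to 93.2 to 194, 40.2 to 55.6, 223 to 393 and 113 to 1201 CPM. Of these 8 genes, 7 had positive log2 fold changes in the young knockout, beside 49.0% of all genes. The tendon marker Scx went the other way, averaging 25.1, 23.6, 13.7 and 23.1 CPM in the same order. Choroid plexus markers summed to 1590 to 6053, 114 to 3482, 19.2 to 30.1 and 12.9 to 25.9 CPM, with Ttr, their leading gene, at 0 in all 6 knockout libraries. Erythroid markers summed to 122 to 260, 103 to 156, 41.0 to 73.7 and 49.7 to 215 CPM (2 of 7 at 0 in each group) and neutrophil markers to 9.12 to 12.5, 3.41 to 8.75, 0.248 to 7.96 and 8.23 to 102 CPM (none of 7 at 0). Endothelial markers stayed between 29.4 and 86.7 CPM and lymphocyte markers at or under 4.77 CPM in the 12 libraries. The part of these other cells' RNA in the members' levels was not tested. Old knockout replicate 3 had 70.8% of its reads outside genes and 25.0% of its gene counts in Lars2. The Lars2 share was 0.484% to 25.0% in the 6 knockout libraries and 0.0258% to 0.110% in the 6 wild-type libraries, without overlap. The part of this difference in the members' levels was not tested. Old knockout replicates 2 and 3 held 1869 and 518 counts of the Y-linked gene Ddx3y against 0 to 39 in the other 10 libraries.

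Of the 54 members, 52 passed the filter on low counts, each with at least 13 counts in every library. Tyms (thymidylate synthase) and Plk4 (the kinase of centriole duplication) were listed at 0 in all 12 libraries, as were 1572 symbols in all. With 3 counts as the floor, a count of 0 allows up to 0.146 CPM in the deepest and 0.745 CPM in the shallowest library, counting error only. The highest floor was 0.872 CPM, in old knockout replicate 3, the smallest library after scaling. Why these symbols stood at 0 was not tested.

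Per kilobase of exon, Cdk4, the G1 kinase partner of the D cyclins, stood highest of the members in young wild type, at 79.6 ± 4.59 CPM per kb (SD, n = 3). Top2a, which untangles sister chromatids, had the next highest mean at 37.8 ± 0.794 CPM per kb, within the spread of Mki67 given next. Rrm2, the regulated subunit of ribonucleotide reductase (31.1 ± 3.13), Pcna, the sliding clamp of the DNA polymerases (30.5 ± 3.04), Mcm6 (29.0 ± 2.13) and Mki67, the Ki-67 coat protein of mitotic chromosomes (29.0 ± 8.97 CPM per kb), did not differ from each other beyond their spread. The subunits of the MCM helicase, which unwinds DNA at replication origins, ran from 13.5 ± 1.23 (Mcm2) to 29.0 ± 2.13 CPM per kb (Mcm6). The lowest tested members were Ccnb1 (1.69 ± 0.387), Cdc25c (1.67 ± 0.373), Ttk (1.63 ± 0.868) and Mad2l1 (1.29 ± 0.222 CPM per kb), which were not apart beyond their spread. Ccnb1 has processed copies in the mouse genome, and the labels do not say how its reads were divided among them, so its level is uncertain.

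Summed over the 21 tested S-phase members, the level was 1248, 1340 and 1316 CPM in young wild-type replicates 1, 2 and 3 and 1316, 1061 and 1477 CPM in the old wild type. It was 963, 1188 and 997 CPM in the young knockout and 1185, 1645 and 1296 CPM in the old knockout. All young knockout libraries lay below all young wild-type libraries, while the groups of old mice overlapped. Summed over the 26 tested mitotic members, the level was 1519, 1512 and 1299 CPM in young wild type and 1332, 1257 and 1617 CPM in old wild type. It was 1122, 1602 and 945 CPM in young knockout and 1534, 2047 and 1660 CPM in old knockout. In this sum young knockout replicate 2 lay above every young wild-type library, whereas replicates 1 and 3 lay below them. A sum is weighted towards the members with the most counts. By the mean log2 level over the same 26 members, replicate 2 stood at 4.98, inside young wild type (4.93 to 5.21). Replicates 1 and 3 stood below it by that measure too, at 4.55 and 4.24. The 5 G1 members summed to 625 to 672 CPM in young wild type, 606 to 655 in old wild type, 536 to 564 in young knockout and 546 to 639 CPM in old knockout.

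**Figure D2:**
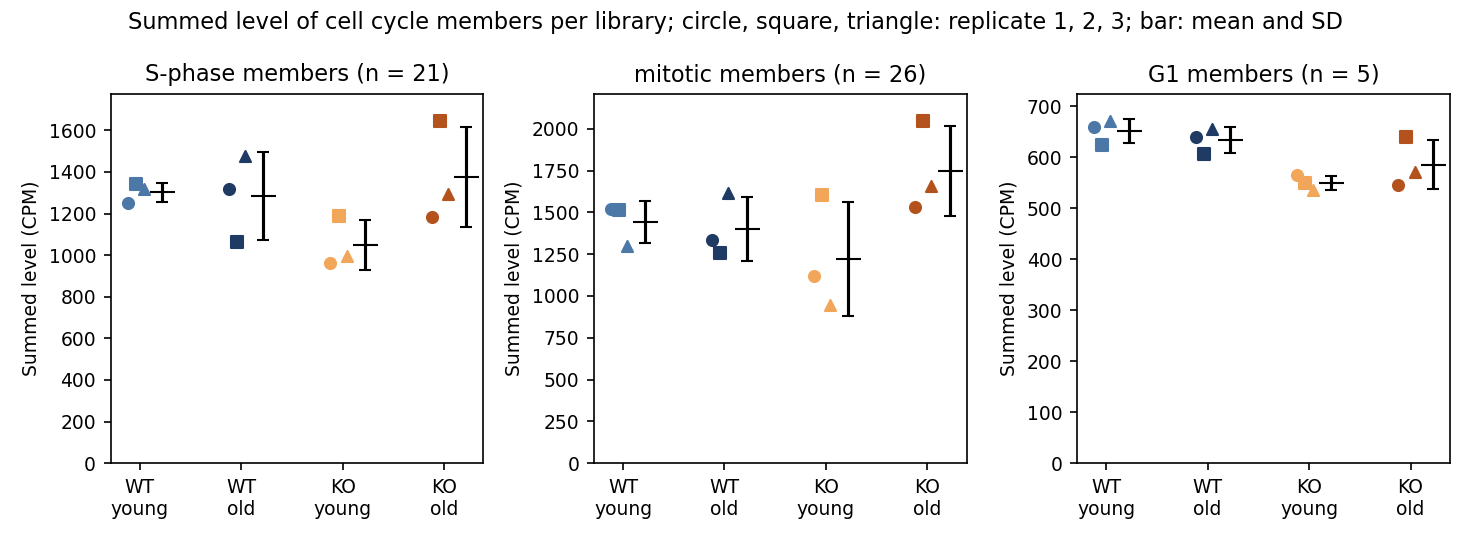
Summed level (CPM, vertical axis from 0) of the tested S-phase, mitotic and G1 members in each library of the 4 groups, with the group mean and SD (n = 3). The S-phase sums of young knockout (963 to 1188 CPM) lie below those of young wild type (1248 to 1340 CPM), and old knockout replicate 2 is the highest library for S-phase and mitotic members.

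The ratio of the mitotic to the S-phase sum was 1.22, 1.13 and 0.987 in wild type and 1.16, 1.35 and 0.948 in knockout among young mice, and 1.01, 1.18 and 1.09 and 1.29, 1.24 and 1.28 among old mice. The 3 old knockout libraries lay above all 6 wild-type libraries in this ratio, and the young knockout libraries spread over the whole range. With offsets for GC content, described below, the old knockout no longer lay above all wild-type libraries. Old knockout replicate 3 then had a mitotic sum of 1566 CPM and an S-phase sum of 1282 CPM. The same sums in young wild-type replicate 1 were 1588 and 1249 CPM. Much of the spread lay in single libraries. Young knockout replicate 3, the shallowest library, held the lowest level of 34 of the 52 members, and old knockout replicate 2 held the highest level of 23. The former also read 549 CPM of Myod1, the myogenic determination factor, against 74.1 to 219 CPM in the other 11 libraries. Myod1 was singled out after its values were seen, and its part in the low levels of that library was not tested.

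In young mice the knockout had lower mRNA of 13 members, among them 4 of the 7 transcription factors and 2 of the 8 cyclins. Against young wild type, 13 members fell and 0 rose, where 10.0% of the 13540 tested genes fell and 10.9% rose by the same rule (edgeR's quasi-likelihood test, Benjamini-Hochberg adjusted p under 0.05). The 13 comprised 5 of 21 S-phase, 1 of 5 G1 and 7 of 26 mitotic members. The median log2 fold change (knockout minus wild type) was -0.49 over the 52 members, -0.48 over S-phase and -0.54 over mitotic members, beside -0.02 over all genes. In 28 members every knockout library lay below every wild-type library, and in none above, where 19.6% and 16.0% of all tested genes did so.

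The transcription factors held 4 of the 13, of which Foxm1 and E2f1 are activators and E2f7 and E2f8 repressors. Foxm1, the forkhead activator of G2 and mitotic genes, read 52.9, 47.5 and 45.1 CPM in young wild type and 23.3, 23.0 and 21.4 CPM in young knockout. In old mice it read 42.2, 38.7 and 43.9 CPM in wild type and 32.0, 43.2 and 29.1 CPM in knockout. The young groups were far apart with little spread in either, and the old groups overlapped through old knockout replicate 2. Its log2 fold change in young mice was -1.10 ± 0.15 (SE), and its adjusted p (edgeR) was 0.000908, the smallest of the members.

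E2f1, the activator E2F that opens S phase, read 21.3, 26.7 and 18.2 CPM in young wild type against 9.12, 7.83 and 6.71 CPM in young knockout. In old mice it read 17.2, 12.6 and 16.6 CPM in wild type and 8.26, 14.1 and 7.55 CPM in knockout. All 3 young knockout libraries thus lay below all 6 wild-type libraries, and old knockout replicate 2 overlapped with old wild type. In young mice E2f1 fell by 1.46 ± 0.25 on the log2 scale, a 2.75-fold difference (adjusted p = 0.00210, edgeR). E2f7, an atypical E2F that represses E2F targets late in S phase, read 28.0, 27.5 and 25.5 CPM in young wild type and 13.1, 14.4 and 10.2 CPM in young knockout. It stood at 25.4, 21.5 and 28.0 CPM in old wild type and 13.5, 23.6 and 14.5 CPM in old knockout, again with replicate 2 alone inside the wild-type range. It fell by 1.09 ± 0.21 in young mice (adjusted p = 0.00382, edgeR). E2f8, its partner repressor, read 49.2, 54.2 and 43.6 CPM in young and 53.8, 42.0 and 52.6 CPM in old wild type, against 41.0, 32.6 and 24.8 CPM in young and 30.5, 39.5 and 30.2 CPM in old knockout. All 6 knockout libraries lay below all 6 wild-type libraries, and the difference in young mice was -0.56 ± 0.18 (adjusted p = 0.0454, edgeR). E2f2 (-0.48), E2f3 (0.10) and Mybl2, the B-MYB factor of mitotic promoters (-0.75), did not pass.

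Among the cyclins, Ccnd3 and Ccne1 fell. Ccnd3, a D cyclin of G1, read 135, 139 and 132 CPM in wild type and 78.7, 74.1 and 93.4 CPM in knockout among young mice, and 85.0, 86.4 and 89.6 CPM and 88.3, 66.4 and 68.9 CPM among old mice. Young wild type stood alone above the other 3 groups, which overlapped. Its difference between the genotypes in young mice was -0.73 ± 0.13 (adjusted p = 0.00266, edgeR). Ccne1, cyclin E1, which with CDK2 starts replication, was highest in young wild type too, at 30.6, 34.7 and 32.2 CPM, against 23.4, 13.6 and 23.1 CPM in old wild type, 17.9, 19.4 and 12.4 CPM in young knockout and 19.1, 29.0 and 23.2 CPM in old knockout. It fell by 0.95 ± 0.23 in the young knockout (adjusted p = 0.0115, edgeR).

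The other cyclins did not pass in young mice. Ccne2, cyclin E2, read 6.94, 6.48 and 8.82 CPM in young wild type and 7.13, 9.24 and 5.96 CPM in young knockout, with overlap, and 11.94, 7.16 and 10.7 CPM in old wild type against 12.02, 14.1 and 13.4 CPM in old knockout, without overlap. Ccnd1 read 135, 123 and 140 CPM in wild type and 109, 102 and 150 CPM in knockout among young mice, and 172, 123 and 154 CPM and 131, 183 and 137 CPM among old mice, and all groups overlapped. Ccnd2 read 36.2, 30.6 and 29.0 CPM in wild type and 16.6, 19.6 and 33.5 CPM in knockout among young mice, and 29.5, 27.4 and 29.6 CPM and 20.0, 11.2 and 22.4 CPM among old mice. The old groups did not overlap for Ccnd2, and young knockout replicate 3 was inside the wild-type range. Ccna2, cyclin A2 of S and G2, read 79.1, 88.3 and 74.3 CPM in young wild type and 78.9, 70.8 and 97.6 CPM in old wild type, against 52.8, 87.5 and 50.9 CPM in young knockout and 96.2, 123 and 116 CPM in old knockout. Knockout replicates 1 and 3 were the low ones among young mice, with replicate 2 inside the wild-type range.

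Of the mitotic kinases and their regulators, Plk1 moved the most. Plk1, the polo kinase of spindle assembly and mitotic entry, read 21.2, 24.2 and 16.9 CPM in young wild type and 6.96, 7.06 and 3.48 CPM in young knockout. In old mice it read 19.7, 17.7 and 18.7 CPM in wild type and 11.7, 16.2 and 6.97 CPM in knockout, so that knockout lay below wild type at both ages without overlap. The log2 fold change in young mice was -1.78 ± 0.29, 3.42-fold lower, with an adjusted p of 0.00168 in edgeR's test. Cdk1, the kinase that drives mitosis, read 58.5, 77.5 and 63.2 CPM in young and 64.8, 56.4 and 76.8 CPM in old wild type, against 38.1, 56.5 and 36.5 CPM in young and 57.5, 74.6 and 52.3 CPM in old knockout. Young knockout replicate 2 came close to the wild-type range, and the fall of 0.60 ± 0.20 passed narrowly (adjusted p = 0.0466, edgeR). Aurkb, the kinase of the chromosomal passenger complex, read 23.3, 26.2 and 23.7 CPM in young and 18.8, 20.8 and 30.4 CPM in old wild type, and 14.01, 19.6 and 10.4 CPM in young and 21.8, 29.2 and 20.6 CPM in old knockout. It too fell narrowly in young mice (-0.71 ± 0.24, adjusted p = 0.0477, edgeR) and the old groups overlapped.

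Of the 6 genes of the spindle checkpoint and the anaphase-promoting complex, Ube2c and Cdc20 fell, and Bub1 (0.48) and Mad2l1 (0.29) had positive values that did not pass. Ube2c, the ubiquitin-conjugating enzyme of the anaphase-promoting complex, read 22.9, 27.5 and 22.5 CPM in young wild type and 9.78, 13.9 and 10.4 CPM in young knockout, against 25.4, 22.4 and 28.1 CPM and 16.7, 24.9 and 28.5 CPM in old wild type and old knockout. The young groups were separate and the old groups overlapped. In young mice it fell by 1.09 ± 0.21 (adjusted p = 0.00351, edgeR). Cdc20, the activator of that complex at anaphase, read 33.2, 57.6 and 32.6 CPM in wild type and 18.0, 24.5 and 14.9 CPM in knockout among young mice, and 39.1, 30.0 and 48.4 CPM and 29.4, 39.9 and 32.5 CPM among old mice. Young wild-type replicate 2 stood well above its group, and the young groups still did not overlap (-1.08 ± 0.26, adjusted p = 0.0118, edgeR). Without that library the Cdc20 difference was -0.77 and the adjusted p 0.0575 (edgeR). Of the 6 centromere, motor and spindle genes, Cenpa alone fell. Cenpa, the histone H3 variant that marks centromeres, read 24.5, 32.9 and 24.6 CPM in young wild type and 14.7, 19.6 and 8.94 CPM in young knockout, and 33.7, 24.2 and 34.9 CPM against 21.6, 34.5 and 27.02 CPM in old wild type and knockout. It fell by 0.89 ± 0.26 in young mice (adjusted p = 0.0277, edgeR), with the old groups overlapping.

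**Figure D3:**
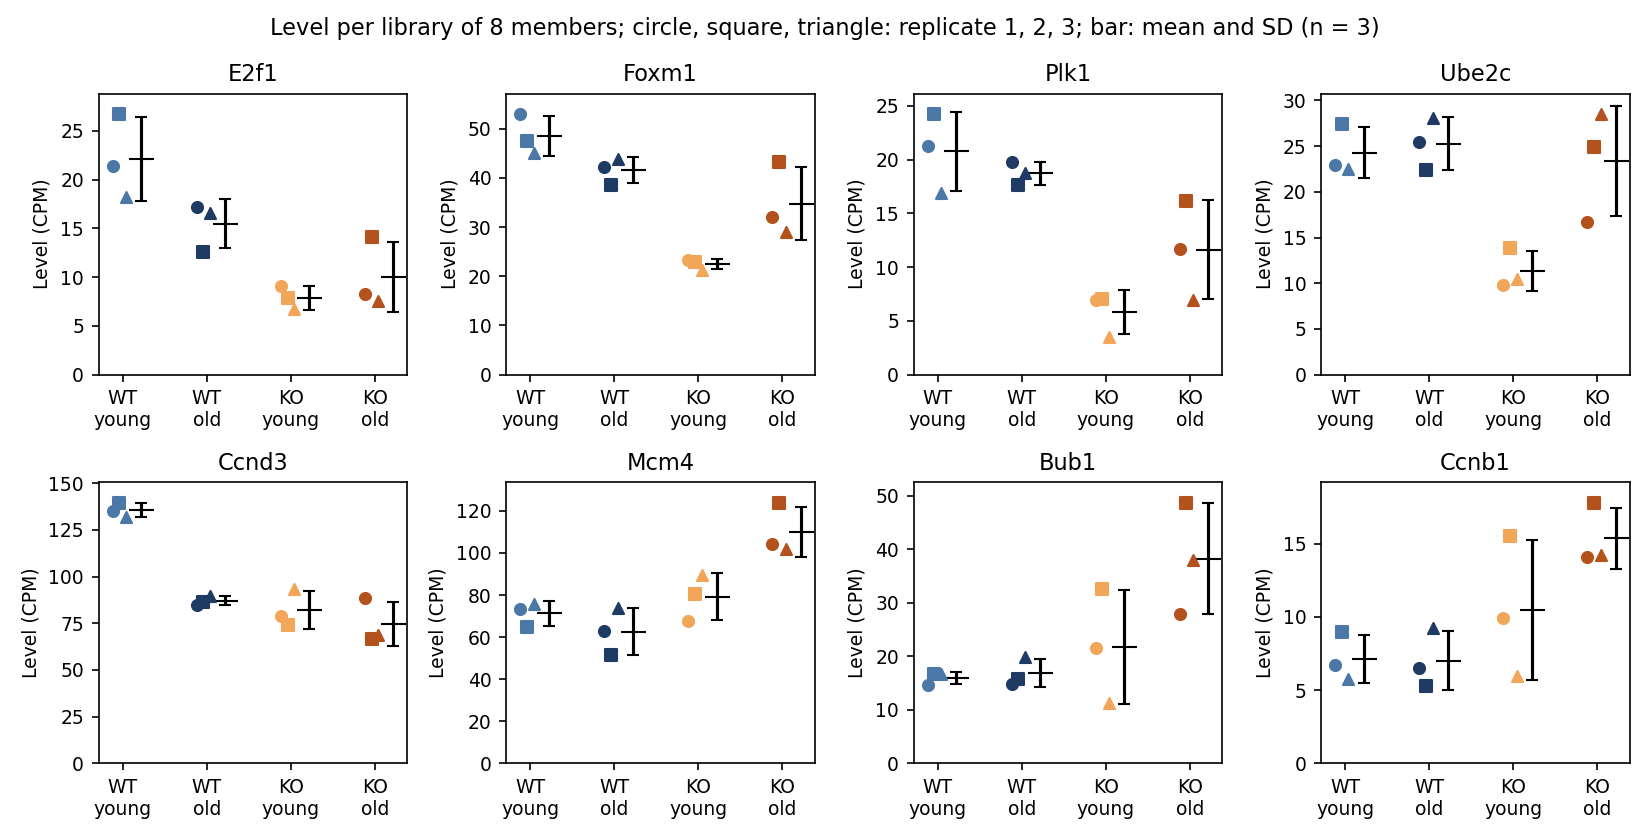
Level (CPM, vertical axes from 0) of 8 members in each library of the 4 groups, with symbols for replicates 1 to 3 and a bar for the mean and SD (n = 3). E2f1, Foxm1, Plk1 and Ube2c have their lowest group mean in young knockout, and Ccnd3 is highest in young wild type and Mcm4 in old knockout (102 to 124 CPM).

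Of the replication genes proper, Rrm2 fell: it read 76.3, 92.7 and 89.4 CPM in wild type and 51.7, 58.9 and 46.0 CPM in knockout among young mice, and 98.9, 66.3 and 116 CPM and 89.4, 125 and 114 CPM among old mice. The 3 young knockout libraries were the lowest of all 12. The log2 fold change in young mice was -0.72 ± 0.19 (adjusted p = 0.0197, edgeR). Pcna read 64.9, 78.5 and 76.1 CPM in wild type and 34.2, 51.0 and 64.8 CPM in knockout among young mice, and 73.4, 59.3 and 82.7 CPM and 58.1, 56.1 and 47.1 CPM among old mice. Knockout lay below wild type at both ages, barely so in young mice, and neither difference passed (-0.56 and -0.41). Of the 9 origin licensing and helicase genes, 0 passed, where 10.0% of all tested genes fell, and 7 had negative values (median -0.40). In 4 of the 9 every knockout library lay below every wild-type library, beside 19.6% of all genes. Just outside the threshold stood Cdc25b, a phosphatase that activates CDK1 (adjusted p = 0.0509), Mcm3 (0.0514), Aurka (0.0522) and Mcm7 (0.0537, edgeR in each case).

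E2f1, E2f7, Foxm1 and Plk1 passed under all 26 alternatives run, and Ube2c and Ccnd3 missed the threshold under 1 and 2, whereas Cdk1, Aurkb and E2f8 missed it under 17, 18 and 21 of them. Some of these alternatives left out only libraries of old mice. Such libraries enter this comparison only through the scaling, the filter and the shared estimate of spread. Without young knockout replicate 3 the split became 10 lower and 2 higher, as Bub1 (0.80) and Ccnb1 (0.89) then rose, where 9.29% of all genes fell and 13.0% rose. Leaving out young wild-type replicate 2 left 7 lower, where 705 of 14059 tested genes fell and 774 rose.

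**Figure D4:**
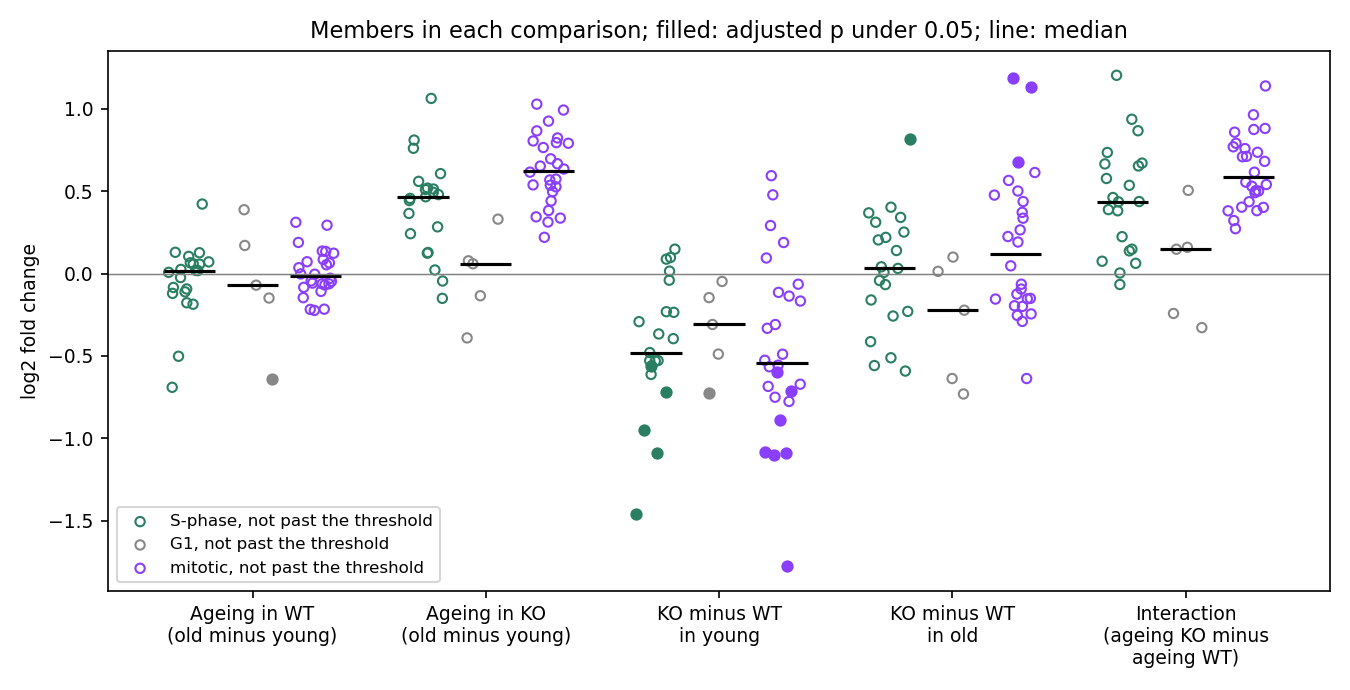
Log2 fold change (vertical axis) of each of the 52 tested members in the 2 ageing comparisons, the 2 genotype comparisons and the interaction, by phase, with filled points past the adjusted threshold of 0.05 and a line at the median of each phase. In young mice 13 members lie below 0 past the threshold, in old mice 4 lie above 0, and 48 of 52 lie above 0 in the ageing comparison of the knockout.

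In old mice, against old wild type, 4 members rose and 0 fell, where 9.52% of all tested genes rose and 7.21% fell. The median log2 fold change was 0.02 over the 52 members and 0.12 over the mitotic ones, beside -0.01 over all genes. Libraries did not overlap in 10 members that were higher and 6 that were lower in knockout, where 21.6% and 20.4% of all genes did so. Counts of members called and of members without overlap were thus near or below the background in each direction.

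Mcm4, a subunit of the replicative helicase, read 62.8, 51.4 and 73.7 CPM in old wild type and 104, 124 and 102 CPM in old knockout, against 73.2, 64.6 and 75.9 CPM in young wild type and 67.6, 80.6 and 89.7 CPM in young knockout. Old knockout stood above all other libraries. Mcm4 rose by 0.81 ± 0.16 (adjusted p = 0.00595, edgeR), 1.76-fold. Bub1, the spindle checkpoint kinase at kinetochores, read 14.9, 15.8 and 19.9 CPM in old wild type and 27.9, 48.7 and 38.1 CPM in old knockout, and 14.6, 16.7 and 16.6 CPM and 21.6, 32.6 and 11.2 CPM in the young groups. The old groups were separate, while the young knockout libraries spread on both sides of young wild type. The log2 fold change in old mice was 1.19 ± 0.30 (adjusted p = 0.0204, edgeR).

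Ccnb1, cyclin B1, the partner of CDK1 at mitotic entry, read 6.52, 5.27 and 9.26 CPM in old wild type and 14.1, 17.8 and 14.2 CPM in old knockout. In young mice it read 6.70, 8.95 and 5.77 CPM in wild type and 9.95, 15.5 and 5.96 CPM in knockout. It rose 2.20-fold in old mice (1.13 ± 0.31, adjusted p = 0.0258, edgeR), without overlap. Mki67 read 240, 264 and 308 CPM in old wild type and 383, 506 and 412 CPM in old knockout, and 392, 268 and 216 CPM and 325, 403 and 269 CPM in young wild type and young knockout. Young wild-type replicate 1 reached into the range of the old knockout, and the young groups overlapped. In old mice Mki67 rose by 0.68 ± 0.21 (adjusted p = 0.0444, edgeR). Top2a read 302, 296 and 380 CPM in old wild type and 383, 460 and 392 CPM in old knockout, and 334, 348 and 339 CPM and 257, 438 and 215 CPM in the young groups. The old groups touched without overlapping and the difference of 0.34 did not pass. E2f8 stood nearest to the threshold from outside (-0.56, adjusted p = 0.0536, edgeR).

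The split of calls in old mice moved with the scaling. With library size alone it was 2 higher and 3 lower (Ccnd2, E2f7 and E2f8), where 2.65% and 13.5% of all genes passed. With DESeq2 it was 4 higher and 2 lower (background 11.1% and 9.16%), and with upper-quartile factors 3 higher and 1 lower (7.54% and 9.36%). Without old knockout replicate 2 it was 1 higher and 4 lower (E2f1, E2f7, E2f8 and Plk1, background 7.07% and 4.82%), and without both old knockout libraries that held the high Ddx3y counts it was 0, on a single remaining library. Leaving out old wild-type replicate 1, old wild-type replicate 2 or old knockout replicate 3 left 1 call each. Of 13670, 13851 and 14120 tested genes, 535, 583 and 516 then rose and 390, 466 and 263 fell.

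The fold changes between genotypes followed the base composition of the genes. GC content, the share of G and C in the longest transcript, had a median of 49.0% over the 52 tested members. The log2 level of each member in a library was taken as its deviation from that member's mean over the 12 libraries. Across the members this deviation had a positive rank correlation with GC content in every wild-type library (Spearman's rho 0.221 to 0.556). The correlation was negative in every knockout library (-0.591 to -0.167). The mean spans both genotypes, so the opposite signs partly restate the fold changes between genotypes. The points are genes that share libraries and depth, so no p is given. The log2 fold change of the knockout ran against GC content with rho = -0.61 in young mice and -0.52 in old mice (n = 52), and with -0.81 and -0.73 over the 26 mitotic members. In the young knockout 10 of the 13 falls were among the 26 members with higher GC content, and in the old knockout all 4 rises were among the 26 with lower GC content.

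**Figure D5:**
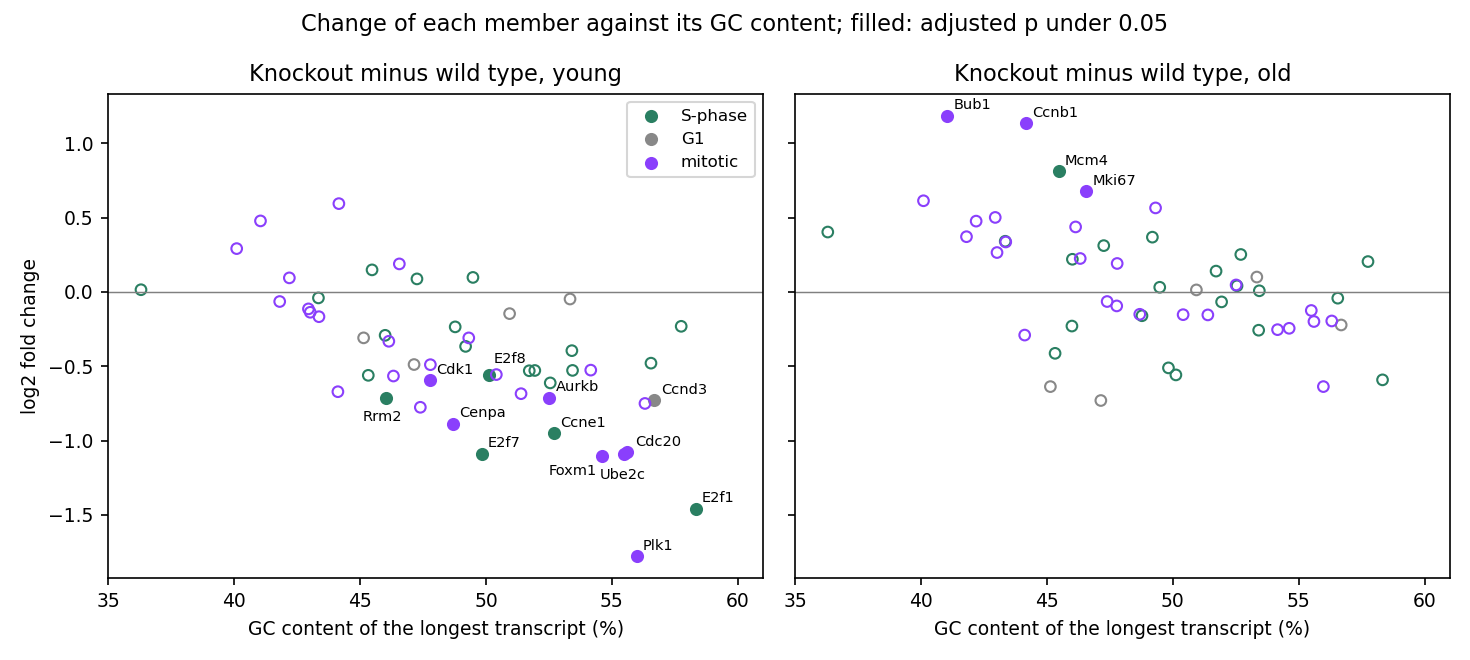
Log2 fold change of each tested member between knockout and wild type against the GC content of its longest transcript (%), for young and old mice. The values fall as GC content rises, with rho = -0.61 in young and -0.52 in old mice over 52 members.

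With offsets that take out the smooth trend of each library's counts on GC content, rho became 0.04 in young and 0.02 in old mice over the 52 members, and -0.32 and -0.33 over the 26 mitotic ones. The young knockout then had 9 lower members and 0 higher, where 4.26% and 3.06% of all genes passed, and its median stayed at -0.49. Of the 13, 6 were among these 9 (E2f1, E2f7, Foxm1, Plk1, Rrm2 and Ube2c), and Cdc25a (-0.48), Pcna (-0.79) and Ccne2 passed as well. Ccne2, the member with the lowest GC content at 36.3%, went from 0.01 to -0.82. In the old knockout Mcm4 alone still passed (0.64, adjusted p = 0.0296, edgeR), where 4.25% of all genes rose and 3.54% fell, and Bub1 (0.79, adjusted p = 0.0861), Ccnb1 and Mki67 did not.

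Ageing in wild type left the members close to their young levels. Of 52 members, 1 fell and 0 rose with age, where 0.805% and 0.258% of all tested genes did so. The median log2 fold change (old minus young) was -0.00, with 25 members positive, beside 0.01 over all genes. The member that fell was Ccnd3, from 136 ± 3.80 to 87.0 ± 2.39 CPM (-0.64 ± 0.13, adjusted p = 0.0334, edgeR). Its values in the libraries, given above, were separate between the ages in wild type, but the call was lost without any 1 of the 6 wild-type libraries (adjusted p 0.0899 to 0.151). Ccne1 (-0.69, adjusted p = 0.160), E2f1 (-0.50) and Foxm1 (-0.22) also lay lower in every old library and did not pass, and Cdk6 (0.39) and Mybl2 (0.31) lay higher in every old library. These 4 members lower and 2 higher without overlap stood beside 13.8% and 13.1% of all genes.

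Without Hoxa9, the members had higher values in old than in young mice almost throughout, and none passed the test. The test called 0 of 52, where 0.0148% of all genes passed. At an unadjusted p under 0.05 there were 29 members, beside 9.72% of all genes. DESeq2 called 3, namely Rrm2 (1.02), Ube2c (0.98) and Ccna2 (0.76), where 0.487% and 0.539% of all genes were called higher and lower, and limma-voom called 0 (background 0.0591% and 0.0369%). The log2 fold change was positive in 48 of 52 members, beside 48.9% of all genes. Its median was 0.51 over all members, 0.47 over S-phase and 0.63 over mitotic members, with all 26 of the latter positive, beside -0.01 over all genes. In 16 members every old knockout library lay above every young knockout library, and in none below, where 6.37% and 5.22% of all genes did so. The 4 negative members were Ccnd2 (-0.39), E2f3 (-0.15), Ccnd3 (-0.13) and Cdk2 (-0.05).

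Rrm2 had the smallest p of these, with 52.2 ± 6.49 CPM in young and 109 ± 18.2 CPM in old knockout (SD, n = 3), a log2 fold change of 1.06 ± 0.20 and adjusted p = 0.0669 (edgeR). Ube2c stood at 11.4 ± 2.19 and 23.3 ± 6.05 CPM (1.03 ± 0.21, adjusted p = 0.121, edgeR), Foxm1 at 22.5 ± 1.03 and 34.7 ± 7.44 CPM (0.63 ± 0.16) and Ccna2 at 63.8 ± 20.6 and 112 ± 13.9 CPM (0.80 ± 0.20). The median over members went from 0.51 to 0.32 without old knockout replicate 2 and to 0.17 without replicates 2 and 3, the libraries with high Ddx3y counts. It was 0.41 without young knockout replicate 3. No label gives the sex of the mice, and the part of the Ddx3y difference in these values was not tested. Against GC content rho was 0.04 over the 52 members and 0.54 over the 26 mitotic ones (0.38 with GC offsets), and the median with GC offsets was 0.50.

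The difference between the age effects of the genotypes was tested as an interaction. The test called 0 of 52 members, where 0.0148% of all genes passed, and DESeq2 and limma-voom called 0 as well (background 0.199% higher and 0.229% lower with DESeq2, 0.00739% and 0% with limma-voom). At an unadjusted p under 0.05 there were 16 members, beside 9.72% of all genes. The value (age effect in knockout minus age effect in wild type) was positive in 49 of 52 members, beside 50.7% of all genes, with a median of 0.50. The smallest adjusted p was 0.296, shared by Foxm1 (0.86 ± 0.22) and Ccne1 (1.20 ± 0.32, edgeR). Plk1 had 1.14 ± 0.40, Ube2c 0.96 ± 0.29 and Rrm2 0.94 ± 0.27. The interaction, the ageing comparison in knockout and the comparison of genotypes in young mice share the young knockout libraries, so their values for a member are not independent.

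Of 55 tested replication genes outside the 54, 6 rose and 10 fell in the young knockout, where 10.9% of all tested genes rose and 10.0% fell. Chaf1a, a subunit of the chromatin assembly factor behind the fork, went from 42.4 to 21.7 CPM (-0.96 ± 0.21, adjusted p = 0.00722, edgeR), and Lig1, the ligase of Okazaki fragments, from 53.7 to 29.4 CPM (-0.87). Brca2, a DNA repair gene, rose from 11.2 to 22.7 CPM (1.01), and Orc4, a subunit of the origin recognition complex, from 27.5 to 55.1 CPM (1.02). In old mice 8 rose and 0 fell (background 9.52% and 7.21%), among them Rfc1, the large clamp loader subunit (46.7 to 82.5 CPM, 0.82), Brca2 (0.88), Orc2 (0.66) and Wee1, the kinase that holds CDK1 inactive (41.5 to 76.5 CPM, 0.88). With GC offsets these counts became 0 higher and 4 lower in young mice (background 3.06% and 4.26%) and 2 higher and 0 lower in old mice (4.25% and 3.54%). Age gave 0 calls on this list in wild type and 0 in knockout, where 49 of 55 values were positive (median 0.36), with 2 and 21 genes at an unadjusted p under 0.05.

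Of 80 other mitotic genes tested, 4 rose and 15 fell in the young knockout, and 14 rose and 1 fell in the old knockout, beside the same shares of all genes (10.9% and 10.0% in young, 9.52% and 7.21% in old mice). The 4 rises in young and the 1 fall in old mice were below these shares. The falls in young mice included Kif22, a chromosome-arm motor (32.1 to 12.3 CPM, -1.36 ± 0.23, adjusted p = 0.00197, edgeR), Kifc1, a minus-end motor (-1.12), Ncapd2, a condensin subunit (152 to 79.0 CPM, -0.94), and Cdca8, borealin of the passenger complex (22.6 to 8.56 CPM, -1.36). The rises in old mice included the kinetochore genes Cenpq (7.02 to 17.4 CPM, 1.31 ± 0.21, adjusted p = 0.00295, edgeR) and Casc5 (15.8 to 36.2 CPM, 1.20), and the condensin genes Smc4 (119 to 212 CPM, 0.84) and Ncapg2 (0.80). With GC offsets the counts became 0 higher and 7 lower in young and 1 higher and 0 lower in old mice, beside 3.06%, 4.26%, 4.25% and 3.54% of all genes. Ageing in knockout gave 0 calls with 77 of 80 values positive (median 0.46, 35 at an unadjusted p under 0.05), and ageing in wild type gave 0 calls with 46 positive and 0 at an unadjusted p under 0.05.

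Among 28 tested brakes of the cycle and partners of RB and E2F, 6 rose and 5 fell in the young knockout and 7 rose and 3 fell in the old knockout, where 10.9% and 10.0% of all genes did so in young and 9.52% and 7.21% in old mice. Rb1, the retinoblastoma protein that holds E2F in check, rose from 47.3 to 122 CPM in young mice (1.36 ± 0.20, adjusted p = 0.00118, edgeR), while E2f4, the repressor E2F of resting cells, fell from 82.7 to 38.2 CPM (-1.11) and Trp53, which encodes p53, from 106 to 45.3 CPM (-1.24). Ccng2, a cyclin high in arrested cells, rose as well (0.71). In old mice E2f4 (-1.01), Trp53 (-1.28) and Cdkn1a, the p21 inhibitor of CDKs (173 to 83.3 CPM, -1.05), fell and Wee1, already named, rose. Ageing in wild type lowered Cdkn1c, the p57 inhibitor, from 1419 to 751 CPM (-0.92 ± 0.14, adjusted p = 0.00967, edgeR) and no other gene of this list. With GC offsets the counts became 2 higher and 3 lower in young and 3 higher and 3 lower in old mice (background 3.06%, 4.26%, 4.25% and 3.54%). These lists were written with earlier results of the data known.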

How the data were processed

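RNA-seq libraries of 4 groups (wild type and Hoxa9 knockout, young and old, 3 libraries each) were analysed from the whole-number read counts per gene symbol that the authors deposited. Per the submitters' processing notes, TopHat, HTSeq and DESeq2 were used with build mm9 (no version is named). Per the labels, total RNA libraries were stranded and depleted of ribosomal RNA. The sources used here do not say whether counting used strand, so overlapping and antisense genes can share reads. Lines that name no gene stayed out; reads outside genes were 32.2% to 70.8% of uniquely aligned reads.

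Genes with low counts were removed with filterByExpr, which left 13540 of 22310 symbols. TMM factors and edgeR's quasi-likelihood test (edgeR 4.0.16, R 4.3.3) were used in 1 model with a mean for each of the 4 groups. Benjamini-Hochberg adjustment ran over every tested gene of a comparison, with a threshold of 0.05. CPM are relative to the scaled library size, and values after ± are SD of 3 libraries for levels and SE for log2 fold changes. Gene counts of 4193433 to 20337015 per library and 3 libraries a group limit the precision. On simulated data the fit recovered 41.8% of 67 genes changed 2-fold for the knockout in young mice (13400 genes), 61.2% in old mice (13372 genes), 40.3% for ageing in wild type (13360 genes), 16.4% for the interaction (13377 genes) and 49.3% for ageing in knockout (13386 genes). False calls were 6.52%, 1.94%, 2.30%, 1.79% and 9.35% of the calls in the same order. Of 67 genes changed 1.5-fold the fit recovered 7.46%, 10.4%, 1.49%, 0% and 13.4%. The simulated counts were independent, with few genes changed and no trend on GC content or shift shared within a library. Recovery in the real libraries can therefore differ.

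Members and lists were chosen with earlier results of these data known, so no set test was made. Every library's value is given for members past the threshold (at most 14 a comparison) and for 15 fixed members, and for other lists at most 4 genes past the threshold. Alternatives were DESeq2 1.42.0, limma-voom (limma 3.58.1), other scaling and filters, only the groups compared, a replicate block, offsets for GC content (longest transcript, lowess span 0.3) and exon length from GENCODE M21 (92.26% of symbols and all 54 members matched), and leaving out libraries. Promoters came from RefSeq tables of build GRCm38.p6 and were matched by symbol, with no coordinates taken from mm9. No library repeated another (Spearman's rho of 0.949 to 0.990 within groups).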

Additional observations from a re-analysis of the deposited data

How the results depend on the processing

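For ageing in wild type, 1 member passed. The count was 0 with library size alone, 0 without the 2 libraries with most reads outside genes, 0 without the 2 libraries with the largest Lars2 share, 2 (Ccnd3 and Ccne1) with only the groups compared, and 0 to 1 when each library was left out. In the first 4 of these fits 30, 0, 16 and 332 genes rose and 53, 2, 48 and 581 fell, of 13540, 13804, 14114 and 13486. With each library left out, 0 to 164 genes rose and 6 to 294 fell. For ageing in knockout, where 0 passed, it was 3 with DESeq2, 1 (Rrm2) with no filter on low counts and 0 to 2 with libraries left out in turn, 2 without old knockout replicate 1 (Rrm2 and Ube2c). With no filter 19 genes rose and 19 fell of 20738, and without old knockout replicate 1 these were 50 and 52 of 14125. For the knockout in young mice, where 13 passed, it ran with libraries left out in turn from 7 (without young wild-type replicate 2) to 19 (without old knockout replicate 2) and was 9 with GC offsets or with only the groups compared. In these 4 fits 774, 1435, 414 and 882 genes rose and 705, 1376, 577 and 654 fell, of 14059, 13706, 13540 and 12733. For the knockout in old mice, where 4 passed, it was 9 with only the groups compared, 1 with GC offsets, 1 with GC and length offsets, 0 without both old knockout libraries with high Ddx3y counts, 0 without the 2 libraries with most reads outside genes, and 1 to 8 with libraries left out in turn (8 without young knockout replicate 3). The interaction gave 0 under all alternatives run, where at most 76 genes rose and 40 fell of 14090 (without young knockout replicate 3). The log2 fold change of Ccne2 in the young knockout reversed from 0.01 to -0.82 (GC offsets) and -0.81 (offsets for GC and length). The causes were not tested, except that fewer libraries leave fewer degrees of freedom. Where 1 library remained in a group, it was assumed to vary like the others.

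Libraries of different groups share only a number: 3 of 18 same-numbered pairs had a correlation of deviations over 0.1 (range -0.261 to 0.231). With the replicate number as a block, the members passing were 0 for ageing in wild type, 0 for ageing in knockout, 11 and 3 for the knockout in young and old mice and 0 for the interaction. Of 13540 genes, 18, 0, 1237, 1013 and 1 rose and 61, 0, 1162, 766 and 1 fell in the same order. With GC offsets and the block together the members passing were 0, 0, 5, 1 and 0. There 15, 0, 262, 384 and 1 of all genes rose and 46, 0, 379, 309 and 1 fell.

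Library size alone moved the median log2 fold change of all genes to -0.10 for the knockout in young mice, -0.26 in old mice and -0.15 for the interaction, and no filter on low counts moved it to 0.11 for ageing in wild type, -0.25 for the knockout in old mice and -0.17 for the interaction. Of the values of named members under alternatives, 1215 kept direction and side of the threshold, 128 were no longer past it, 20 came past it, 39 moved and 2 reversed. Group means of the summed S-phase and mitotic levels stayed within 1 SD with library size alone, upper-quartile factors and GC offsets, but old knockout replicate 3 went from 1296 to 1001 CPM (S-phase) and from 1660.5 to 1283 CPM (mitotic) with library size alone. Depth was lowest in young knockout replicate 3, where Mybl2, Plk1 and Cdc25c rest on 13, 14 and 16 counts, and in old knockout replicate 3, where Cdc25c, Plk1 and E2f1 rest on 17, 24 and 26.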
